A study of Homo sapiens with 9 samples.

Results

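The transcript response of MV4-11 cells to 1000 nM alisertib was read over all 13410 genes of the authors' deposited table of comparisons. The alisertib group held 3 libraries of cells kept for 18 h in 1000 nM alisertib, and the DMSO group held 3 libraries of cells kept for 18 h in the vehicle. A further 3 libraries, of cells in 100 nM JB170, the degrader of Aurora A that the series is named for, were not used in this comparison. MV4-11 is an established human line of acute monocytic leukaemia, which carries a fusion of KMT2A (MLL) with AFF1 and an internal tandem duplication of FLT3, and all groups share that one line. RNA was sequenced after poly(A) selection from directional libraries, per the labels' protocols.

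Aurora A is a serine/threonine kinase that accumulates in G2, matures the centrosomes, activates PLK1 together with its cofactor BORA and is held on the spindle by TPX2. Alisertib blocks the ATP site of Aurora A and is known to be selective for it over Aurora B. Whether that selectivity held at the dose used here was not tested. The changes below are therefore those of the treatment and are not assigned to Aurora A alone. Cells in which Aurora A is inhibited are known to build faulty spindles and to be delayed in mitosis, and the genes of G2 and mitosis are transcribed as a wave that peaks late in the cell cycle.

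All changes are log2 values of alisertib minus DMSO, so a positive value means a higher level with alisertib. This is the deposited alisertib column multiplied by -1, because its header names DMSO first. That direction was inferred and no header states it. The JB170 column has a header of the same form, yet as deposited the 4 genes called in it had the opposite sign there: HFM1 stood at -1.27 in the alisertib column and 0.75 in the JB170 column, SLCO5A1 at -0.96 and 0.51, ANKRD30BL at -1.46 and 2.17, and SPTLC3 at 0.86 and -3.16, all in the authors' deposited table before any change of sign. Both comparisons share the DMSO libraries, and a header of this form does not by itself settle the direction. Genes with an absolute change of at least 1 and a mean level between 0 and 4 log2 CPM, the log scale of reads per gene scaled to library size, bear on it, since fewer reads in the treated libraries give a larger error. As coded here, the 251 lower genes of that kind had a median implied standard error of 0.91, and the 143 higher genes one of 0.69. In the JB170 column this measure was 0.89 for either sign. The libraries behind the mean level are not named, and were the column to run the other way, every direction below would turn. A standard error is called implied where it was worked out from the authors' p-value and change. The 95% intervals come from it and are approximate, since the authors' test is not known. With a table of comparisons and no values of single libraries, neither the depth nor a level per group can be given. The labels leave unsaid whether the 3 libraries of a group are separate cultures, and the p-values may therefore cover technical spread alone.

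The defining markers of the line were checked first. The authors' deposited mean level was 9.88 log2 CPM for the receptor tyrosine kinase FLT3, 8.64 for CD4, 8.26 for the myeloid factor SPI1, 5.97 for CD33 and 5.76 for the homeobox gene MEIS1. HOXA9, another gene that the KMT2A fusion is known to drive, stood at 1.41 log2 CPM and the integrin ITGAM at 1.95. Of 14 markers of the line 12 were measured and 3 of them rose. Markers of other cells were few: 5 of 12 lymphoid, 4 of 14 erythroid and megakaryocytic, 4 of 12 epithelial, neuronal or fibroblast and 1 of 6 plasmacytoid or dendritic markers were measured, and none of these 14 was called. Among them were the interleukin receptor IL7R at 6.40 log2 CPM and a change of -0.28 (p = 0.00563, adjusted p = 0.0864), and IL3RA at 4.50 log2 CPM and a change of -0.10, in the authors' deposited table.

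A gene was called at the authors' adjusted p under 0.05. Alisertib moved many transcripts by small amounts. Of the 13410 genes 794 were called (5.92%), of which 415 rose (3.09% of all genes) and 379 fell (2.83%). The median size of a called change was 0.43, and 500 of the called genes (63.0%) changed by less than 0.5. Changes of at least 1 were called for 30 higher and 28 lower genes. Over all genes the median change was 0.0061, with 48.8% of genes below 0. The share called was larger and the implied error smaller at higher levels. Between -1 and 1 log2 CPM 0.283% of 2119 genes were called, with a median implied standard error of 1.11. The share was 5.88% of 3128 genes between 3 and 5 log2 CPM (0.18) and 10.2% of 1547 genes between 7 and 9 (0.083). A list of well expressed genes therefore has a higher share to be read against than the 5.92% of all genes. The lists below were chosen with earlier results of these data known. Their shares called are therefore descriptions and not independent of the calls. The JB170 column of the table had 4 called genes (0.0298%), a column headed A100 had 174 (1.3%) and one headed MK had 63 (0.47%). These comparisons share the DMSO libraries, and the labels give no group for the last pair.

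**Figure D1:**
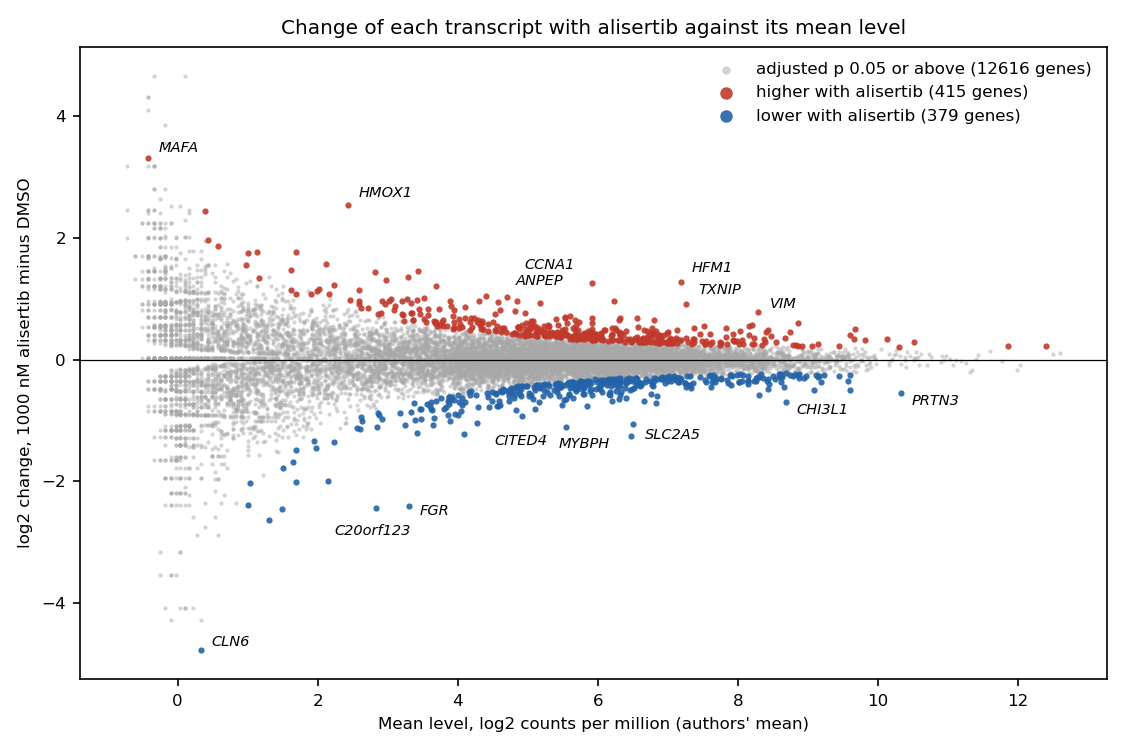
Each point is a gene of the authors' deposited table, with its mean level in log2 CPM on the x axis and its log2 change, 1000 nM alisertib minus DMSO, on the y axis. The 415 called genes above 0 and the 379 below it form thin bands that narrow toward high levels, where 10.2% of the genes between 7 and 9 log2 CPM were called, and few of the genes under 1 log2 CPM were called.

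Among the 13410 genes kept, those with the smallest p-values were of unlike kinds. By its ratio of adjusted to raw p, the first of them, HFM1, was at rank 2 of the authors' 16812 tests, and the gene at rank 1 was not analysed here. HFM1 (ENSG00000162669, chromosome 1 from 91260766 to 91404869, minus strand, in the GRCh38 annotation of GENCODE 29), a DNA helicase gene of meiotic recombination, rose by 1.27 in the authors' deposited table (95% interval 1.10 to 1.43, adjusted p = 6.56e-48). HFM1 stood at a mean of 7.19 log2 CPM and SLCO5A1, named below, at 6.24. Whether their reads come from the genes' own transcripts was not tested. CCNA1 (ENSG00000133101, chromosome 13 from 36431520 to 36442882, plus strand), the A-type cyclin of germ cells and of some myeloid leukaemias, rose by 1.25 in the authors' deposited table (interval 1.06 to 1.44). TXNIP, an arrestin that lowers glucose uptake and binds thioredoxin, rose by 0.91 (0.75 to 1.07) in the authors' deposited table. HMOX1, which breaks down haem and is a standard target of NRF2, rose by 2.53 (2.08 to 2.98, adjusted p = 2.77e-24), a 5.78-fold change, from the authors' deposited table. The intermediate filament gene VIM, the transporter gene SLCO5A1, the membrane-bound BASP1, the scaffold AHNAK, the surface peptidase ANPEP (CD13), the complement inhibitor CD59, the semaphorin receptor PLXND1 and the actin-severing GSN completed the 12 higher genes with the smallest adjusted p among those kept, with changes between 0.59 for AHNAK and 1.02 for ANPEP in the authors' deposited table.

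Among the lower genes kept here the smallest adjusted p belonged to MYBPH, which encodes a myosin-binding protein, with a change of -1.25 in the authors' deposited table (95% interval -1.47 to -1.04, adjusted p = 4.79e-26). MYBPH (chromosome 1 from 203167811 to 203175813, minus strand, GRCh38) lies next to CHI3L1 (203178931 to 203186749, minus strand), the chitinase-like protein secreted by macrophages. CHI3L1 fell by 0.69 in the authors' deposited table (-0.84 to -0.54). The fructose transporter SLC2A5 fell by 1.06 and CITED4, a coactivator that binds CBP and p300, fell by 1.10 in that table. FGR, a SRC family kinase of myeloid cells, fell by 2.41 (-3.06 to -1.76) at a mean of 3.31 log2 CPM, and the gene listed as C20orf123 fell by 2.43 (-3.14 to -1.72) at 2.84 log2 CPM, in the authors' deposited table. PRTN3, a serine protease of neutrophil granules, the asparagine synthetase ASNS, the survival kinase PIM1, the kinesin KIF21B, the amino acid transporter SLC7A5 and DDIT4, an inhibitor of mTORC1, completed the 12, with changes between -0.76 for DDIT4 and -0.49 for SLC7A5 in the authors' deposited table.

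Abundant transcripts moved by less. At a mean of at least 8 log2 CPM 88 genes were called, 37 higher and 51 lower. After VIM (0.77) and AHNAK (0.59), the highest were POLR2A, the catalytic subunit of RNA polymerase II (0.57), C12orf35 (0.55), GLUL, which makes glutamine (0.51), the galectin LGALS1 (0.49), the mitochondrial transporter ABCB10 (0.47) and the nuclear noncoding RNA MALAT1 (0.45), all from the authors' deposited table. At the low end stood CHI3L1, PIM1, PRTN3, ATF4 (-0.50), SLC7A5, RRM2 (-0.48), PSAT1 (-0.46) and SLC3A2 (-0.40), whose roles are given below, in the authors' deposited table. Of these 8, ATF4, SLC7A5, PSAT1 and SLC3A2 belong to amino acid supply or its transcriptional control. Below a mean of 3 log2 CPM 53 genes were called, 31 higher and 22 lower. MAFA (3.31, interval 1.22 to 5.40), SLC7A8 (2.43, 1.23 to 3.64) and IFI44 (1.97, 0.75 to 3.19) were the highest with HMOX1, and CLN6 (-4.77, -7.80 to -1.75), KCNE1 (-2.63), IL31RA (-2.45) and C20orf123 the lowest, in the authors' deposited table. Their intervals are wide, so the sizes are loosely set.

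The target's own transcript rose. AURKA (ENSG00000087586, chromosome 20, minus strand) rose by 0.49 in the authors' deposited table (95% interval 0.32 to 0.65, adjusted p = 1.59e-06), a 1.40-fold change at a mean of 7.14 log2 CPM. Alisertib blocks the protein, so this is no check of the treatment. Of 21 measured genes of Aurora A and its activators and partners 6 rose and none fell (28.6% called, median change 0.07 against 0.0061 over all genes). Besides AURKA these were PLK1, the kinase it activates, CKAP5 (0.36) and TACC3 (0.29), which together with clathrin bridge spindle microtubules, BORA (0.34) and BIRC5, the survivin subunit of the chromosomal passenger complex (0.26), in the authors' deposited table. TPX2, the spindle activator of Aurora A, stood at 0.19 (p = 0.0114, adjusted p = 0.135), AURKB at -0.10 (interval -0.28 to 0.09) and INCENP, the scaffold of Aurora B, at 0.11, and none of these was called in the authors' deposited table. AURKC was not analysed here.

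Genes of G2 and mitosis rose more often than they fell. Of 47 measured G2 and mitotic regulators 14 rose and 1 fell (31.9% called), with a median of 0.13 and 32 members above 0. HMMR, which focuses spindle poles, rose by 0.66 (95% interval 0.47 to 0.84) and DEPDC1 by 0.60 (0.40 to 0.80) in the authors' deposited table. PLK1, which drives mitotic entry, rose by 0.51 (0.36 to 0.67, adjusted p = 4.01e-08) and G2E3, a ubiquitin ligase, by 0.49 in that deposited table of the authors. The B-type cyclins CCNB2 (0.45) and CCNB1 (0.41), the centrosomal kinase NEK2 (0.44), the phosphatase CDC25B that activates CDK1 (0.42) and the importin KPNA2 (0.40) rose by similar amounts in the authors' deposited table. The single member that fell was PKMYT1, a kinase that inhibits CDK1 (-0.33, interval -0.51 to -0.14), in the authors' deposited table. CDK1 itself stood at 0.22 (p = 0.00577), the inhibitory kinase WEE1 at 0.29 (p = 0.00358) and the activator of mitotic transcription MYBL2 at -0.19 (p = 0.0114), not called in the authors' deposited table. FOXM1, the forkhead factor of the same programme, stood at 0.08 (interval -0.14 to 0.30), also not called. In bulk RNA a larger share of cells in a phase and more RNA per cell cannot be told apart.

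Other parts of the mitotic machinery were split. Of 43 measured kinetochore and checkpoint genes 4 rose and 3 fell (16.3% called, median 0.03). The checkpoint kinase BUB1 (0.42), the shugoshin SGOL2 (0.40), the microtubule-binding NDC80 (0.39) and CENPF (0.23) rose, while SPC25 (-0.47), CENPK (-0.42) and ZWINT (-0.35) fell, in the authors' deposited table. SPC25 and NDC80 are subunits of one complex that joins kinetochores to microtubules, and its subunit SPC24 stood at -0.43 (p = 0.00467, adjusted p = 0.0758) in the authors' deposited table. Among 15 mitotic kinesins 3 rose and none fell (20% called): the depolymerase KIF2C (0.57), KIF18A, which dampens chromosome oscillation (0.46), and KIF20A of cytokinesis (0.33), per the authors' deposited table. Of 21 genes of the anaphase-promoting complex and separase pathway 2 rose (9.52% called), CDC20, its mitotic activator (0.51), and UBE2C, its ubiquitin-conjugating enzyme (0.43), in the authors' deposited table, and none fell. In 19 condensin and cohesin genes NCAPD2 was the only one called (0.33), while SMC2 (-0.24), STAG1 (-0.32) and NCAPD3 (-0.20) were lower without passing in the authors' deposited table. Of 30 centrosome, centriole and augmin genes CEP55 alone was called (0.30, authors' deposited table). These last 2 lists had 5.26% and 3.33% of members called, near or under the share of all genes.

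Promoters of 4 of the 14 G2 and mitotic regulators that rose are shown, with the motifs that were searched. Genes of this wave are known to carry a CHR element, TTTGAA, close to the start site, with CCAAT boxes upstream that bind NF-Y. Both were searched on both strands in the 300 bases from 250 before to 50 after each RefSeq start site (GRCh38.p14), for the 9964 measured genes (74.3%) that have such an entry. The letters TTTGAA occurred in 10.3% of all these promoters, in 24 of 37 promoters of the G2 and mitotic regulators (64.9%, exact 95% interval 47.5 to 79.8), in 14 of 34 of the kinetochore list (41.2%, but 7 of 34 or 20.6% when only the 250 bases before the start were searched) and in 2 of 45 of the replication list (4.44%). Without regard to the lists they occurred in 13.6% of 316 promoters of higher genes (10.0 to 17.9) and in 6.93% of 303 promoters of lower genes (4.34 to 10.4). CCAAT occurred in 36.6% of all promoters and in 25 of 37 of the G2 and mitotic regulators (67.6%). Of the 11 called members of the G2 and mitotic list with a promoter entry, 8 held TTTGAA (72.7%, 39.0 to 94.0), or 7 with only the 250 bases before the start. The 4 promoters printed all hold both motifs and do not stand for members that lack them. A match of letters is a description, not a binding site. The 250 bases before the start sites of PLK1 (chr16:23678639-23678888, plus strand), CCNB2 (chr15:59104896-59105145, plus strand), HMMR (chr5:163460382-163460631, plus strand) and DEPDC1 (chr1:68497083-68497332, minus strand) follow, 5′ to 3′ along the gene, with both motifs in capitals on either strand.
PLK1: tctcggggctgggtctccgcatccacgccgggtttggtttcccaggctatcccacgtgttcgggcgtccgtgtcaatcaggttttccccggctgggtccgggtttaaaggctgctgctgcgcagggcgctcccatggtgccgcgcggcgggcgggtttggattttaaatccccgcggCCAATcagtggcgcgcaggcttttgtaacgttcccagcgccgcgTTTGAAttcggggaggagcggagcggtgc
CCNB2: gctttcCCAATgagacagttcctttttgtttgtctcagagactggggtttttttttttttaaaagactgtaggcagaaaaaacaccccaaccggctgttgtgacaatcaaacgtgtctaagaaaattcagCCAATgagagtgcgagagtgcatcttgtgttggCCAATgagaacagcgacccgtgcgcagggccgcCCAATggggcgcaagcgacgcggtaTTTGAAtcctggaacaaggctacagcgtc
HMMR: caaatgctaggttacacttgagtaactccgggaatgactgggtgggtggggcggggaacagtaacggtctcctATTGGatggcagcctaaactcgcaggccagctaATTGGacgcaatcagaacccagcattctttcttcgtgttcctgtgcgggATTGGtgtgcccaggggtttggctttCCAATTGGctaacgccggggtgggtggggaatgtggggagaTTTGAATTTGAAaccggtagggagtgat
DEPDC1: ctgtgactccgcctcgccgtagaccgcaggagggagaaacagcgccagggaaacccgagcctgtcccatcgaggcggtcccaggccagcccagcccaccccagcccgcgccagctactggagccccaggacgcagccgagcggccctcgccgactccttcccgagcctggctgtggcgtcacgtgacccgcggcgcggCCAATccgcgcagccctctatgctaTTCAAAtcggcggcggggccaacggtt
In PLK1 and CCNB2 the TTTGAA begins 29 bases before the start site, in HMMR a tandem pair begins 28 and 22 bases before it, and in DEPDC1 its reverse complement begins 27 bases before it. The nearest CCAAT begins 73 bases before the start site in PLK1, 54 in CCNB2 and 52 in DEPDC1. In HMMR 2 overlapping copies on opposite strands begin 69 and 66 bases before it.

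**Figure D2:**
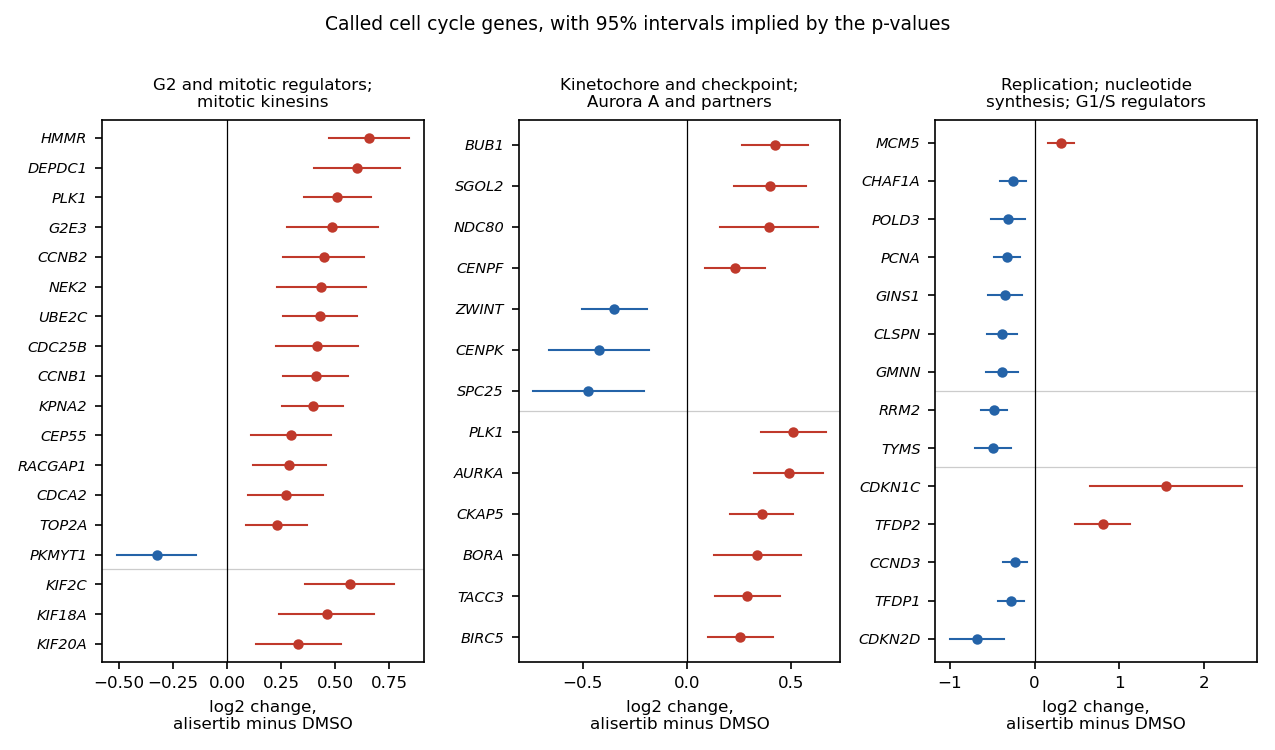
Log2 changes (x axis, 1000 nM alisertib minus DMSO) of every called gene of 7 cell cycle lists, each with the 95% interval implied by the authors' p-value. The mitotic regulators and kinesins lie above 0 except PKMYT1, the kinetochore genes lie on both sides, and of the replication and nucleotide genes MCM5 alone lies above 0.

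Genes of DNA replication tended to the other side. Of 52 measured genes of the replication origin and fork 1 rose and 6 fell (13.5% called, median -0.06). Their median level was 6.49 log2 CPM, and 8.51% of all genes between 5 and 7 log2 CPM were called. GMNN, the geminin that blocks relicensing, and CLSPN, the claspin that carries the checkpoint signal, each fell by 0.38 in the authors' deposited table. GINS1 of the replicative helicase fell by 0.35, the sliding clamp PCNA by 0.32, the polymerase subunit POLD3 by 0.31 and the histone chaperone CHAF1A by 0.26, in the authors' deposited table. MCM5, a subunit of the same helicase, rose by 0.32 (interval 0.16 to 0.47) and MCM2 stood at 0.11, not called, in the authors' deposited table. Both enzymes called in the nucleotide synthesis list fell: thymidylate synthase TYMS by 0.49 (-0.71 to -0.27) and the ribonucleotide reductase subunit RRM2 by 0.48 (-0.64 to -0.33) in the authors' deposited table. The partner subunit RRM1 stood at -0.23 (p = 0.00306) and RRM2B, the p53-inducible subunit, at 0.29 (p = 0.00357), and both missed the threshold in the authors' deposited table. Of 25 measured genes of that list 8% were called, 18 were below 0 and the median was -0.12. That share is under the 10.2% called of all genes between 7 and 9 log2 CPM, and the list's median level was 7.13. The E2F letters TTCCCGC occurred in 18 of 45 promoters of the replication list (40%, exact 95% interval 25.7 to 55.7), against 10.3% of all promoters, 6.65% of promoters of higher genes (4.16 to 9.98) and 12.5% of promoters of lower genes (9.03 to 16.8).

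Among 25 measured regulators of G1 and S phase 2 rose and 3 fell (20% called). TFDP2, a dimer partner of the E2F factors, rose by 0.81 (0.48 to 1.13), while its paralogue TFDP1 fell by 0.28 (-0.43 to -0.13), in the authors' deposited table. The CDK inhibitor gene CDKN1C rose by 1.55 at a low mean of 0.97 log2 CPM (0.65 to 2.46), and CDKN2D, an inhibitor of CDK4 and CDK6, fell by 0.68, in the authors' deposited table. The D-type cyclin CCND3 fell by 0.23 in that deposited table of the authors. E2F1 stood at 0.03 (-0.16 to 0.22), the pocket protein RB1 at 0.22 (p = 0.0121) and CCNE1 at -0.27 (p = 0.0712), not called in the authors' deposited table.

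In the lists of DNA damage and of p53 targets 3 genes each were called, in both directions. Of 48 measured genes of checkpoint and repair 3 were called (6.25%, near the 5.92% of all genes): the recombination gene BRCA2 rose by 0.31, and RNF168, a ligase that marks breaks (-0.49), and the histone variant H2AFX (-0.26) fell, in the authors' deposited table. Of 27 measured p53 targets 3 were called (11.1%): BTG2, an antiproliferative gene, rose by 0.96 (0.64 to 1.28), and GADD45A (-0.73) and MDM4, an inhibitor of p53 (-0.39), fell, in the authors' deposited table. GADD45A is also an ATF4 target. The ligase gene MDM2, another member, stood at 0.06 (-0.25 to 0.37) in the authors' deposited table. CDKN1A was not analysed here. In the BCL2 family 3 of 17 measured genes rose and none fell (17.6% called): the BH3-only genes BMF (0.94, interval 0.68 to 1.21) and BIK (0.60), and BNIP3L, a mitophagy receptor (0.36), in the authors' deposited table. The antiapoptotic genes MCL1 (0.08), BCL2 (0.02) and BCL2L1 (0.12) and the proapoptotic BCL2L11 (0.15) were not called in the authors' deposited table.

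The ATF4 and amino acid response fell. ATF4 is the transcription factor that is translated when eIF2 is phosphorylated, as under amino acid shortage or stress of the endoplasmic reticulum (ER), and it drives genes that make, import and charge amino acids. Of 29 measured members 11 fell and none rose (37.9% called), the median was -0.26 and 25 members were below 0. The ATF4 transcript fell by 0.50 in the authors' deposited table (95% interval -0.64 to -0.35, adjusted p = 8.68e-09). CHAC1, which degrades glutathione, fell by 1.23 (-1.59 to -0.87), CTH of the transsulfuration pathway by 0.82, ASNS by 0.71 (-0.90 to -0.53) and the pseudokinase TRIB3 by 0.58 in the authors' deposited table. The partner factors CEBPB (-0.58) and CEBPG (-0.35), the growth factor VEGFA (-0.69) and the tRNA exporter XPOT (-0.27) fell as well in the authors' deposited table. PPP1R15A, the phosphatase subunit that reverses eIF2 phosphorylation, stood at 0.35 (p = 0.00492) and the leucine sensor SESN2 at -0.38 (p = 0.00456), not called in the authors' deposited table.

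The called genes of the lists of amino acid supply all fell. Of 20 genes listed as amino acid transporters, of which 11 lay below 0 and 9 above, 5 fell and none rose (25% called). They were SLC7A5 (-0.49, interval -0.63 to -0.35) and SLC3A2 (-0.40), which form the large neutral amino acid exchanger, the amino acid transporter SLC36A4 (-0.43), SLC43A3 (-0.40) and the arginine importer SLC7A1 (-0.25), in the authors' deposited table. SLC43A3 is a nucleobase transporter, although the list holds it. The glutamine carriers SLC1A5 and SLC38A2 each stood at -0.21 (p = 0.00467 and p = 0.00620), not called in the authors' deposited table. Of 16 measured genes of serine synthesis and one-carbon metabolism 3 fell and none rose (18.8% called): PSAT1 (-0.46, interval -0.61 to -0.31) and PHGDH (-0.36) of serine synthesis, and the mitochondrial MTHFD1L (-0.44), in the authors' deposited table. MTHFD2 (-0.10) and SHMT2 (-0.11), which act in the same mitochondrial folate pathway, were not called in the authors' deposited table. Of 20 cytosolic aminoacyl-tRNA synthetases 3 fell (15% called), MARS for methionine (-0.36), AARS for alanine (-0.30) and YARS for tyrosine (-0.26), in the authors' deposited table, and 15 were below 0. Their median level was 8.08 log2 CPM, and 10.2% of all genes between 7 and 9 log2 CPM were called. None of 15 measured mitochondrial synthetases was called (median 0.0030). In that list CARS2 stood at -0.28 (p = 0.0139) and RARS2 at 0.32 (p = 0.0181) in the authors' deposited table.

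The letters GATGNAA, the core of the composite element that ATF4 binds with C/EBP factors, were searched on both strands in the same windows. They occurred in 5 of 22 promoters of the ATF4 list (22.7%, exact 95% interval 7.82 to 45.4), 6.93% of promoters of lower genes (4.34 to 10.4), 3.48% of promoters of higher genes (1.75 to 6.14) and 6.18% of all promoters. Of the 9 called members of the ATF4 list with a promoter entry, 2 held the letters (22.2%, 2.81 to 60.0). HERPUD1 comes from the list of ER chaperones, and the promoters printed do not stand for members that lack the letters. The 250 bases before the start sites of ASNS (chr7:97872409-97872658, minus strand), CHAC1 (chr15:40953221-40953470, plus strand) and HERPUD1 (chr16:56931892-56932141, plus strand) are printed because these genes were among the lower ones and hold the letters, with the match in capitals.
ASNS: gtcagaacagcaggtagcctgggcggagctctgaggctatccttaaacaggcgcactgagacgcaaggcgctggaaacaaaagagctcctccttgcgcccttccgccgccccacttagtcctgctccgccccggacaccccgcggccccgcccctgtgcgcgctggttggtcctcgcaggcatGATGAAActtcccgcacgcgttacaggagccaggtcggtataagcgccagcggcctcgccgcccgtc
CHAC1: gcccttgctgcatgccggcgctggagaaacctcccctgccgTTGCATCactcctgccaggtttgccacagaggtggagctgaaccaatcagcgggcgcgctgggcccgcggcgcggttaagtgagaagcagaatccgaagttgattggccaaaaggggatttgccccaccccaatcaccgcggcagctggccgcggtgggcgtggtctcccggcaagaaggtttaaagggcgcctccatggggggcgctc
HERPUD1: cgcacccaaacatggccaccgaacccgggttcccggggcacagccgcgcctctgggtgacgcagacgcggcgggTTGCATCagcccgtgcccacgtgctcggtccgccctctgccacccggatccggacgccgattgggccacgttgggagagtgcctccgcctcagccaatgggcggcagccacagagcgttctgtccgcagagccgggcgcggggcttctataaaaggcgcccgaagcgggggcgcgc
In ASNS the match begins 67 bases before the start site on the strand printed, and in CHAC1 and HERPUD1 it lies on the other strand, beginning 209 and 176 bases before it.

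Genes of protein folding in the ER were lower in part. Of 27 measured members 5 fell and 1 rose (22.2% called). HERPUD1, which serves ER-associated degradation, fell by 0.68 (-0.89 to -0.47), the secreted chaperone MANF by 0.39, the main ER chaperone HSPA5 by 0.35, the cochaperone SDF2L1 by 0.33 and the transcription factor XBP1 by 0.23, in the authors' deposited table. CALR, the calcium-binding chaperone calreticulin, rose by 0.30 (0.16 to 0.43) in the authors' deposited table. HSP90B1 (-0.10) and PDIA4 (-0.06) were not called, and ATF6, another sensor of the response, stood at 0.31 (p = 0.00283), also not called in the authors' deposited table. Of 23 measured heat shock proteins and cochaperones DNAJB2, a cochaperone known best from neurons, rose by 1.01 (0.66 to 1.36), and CHORDC1 (-0.38) and DNAJB1 (-0.29) fell, in the authors' deposited table. Of that list 13.0% of members were called, and its median was -0.11 with 18 members below 0.

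**Figure D3:**
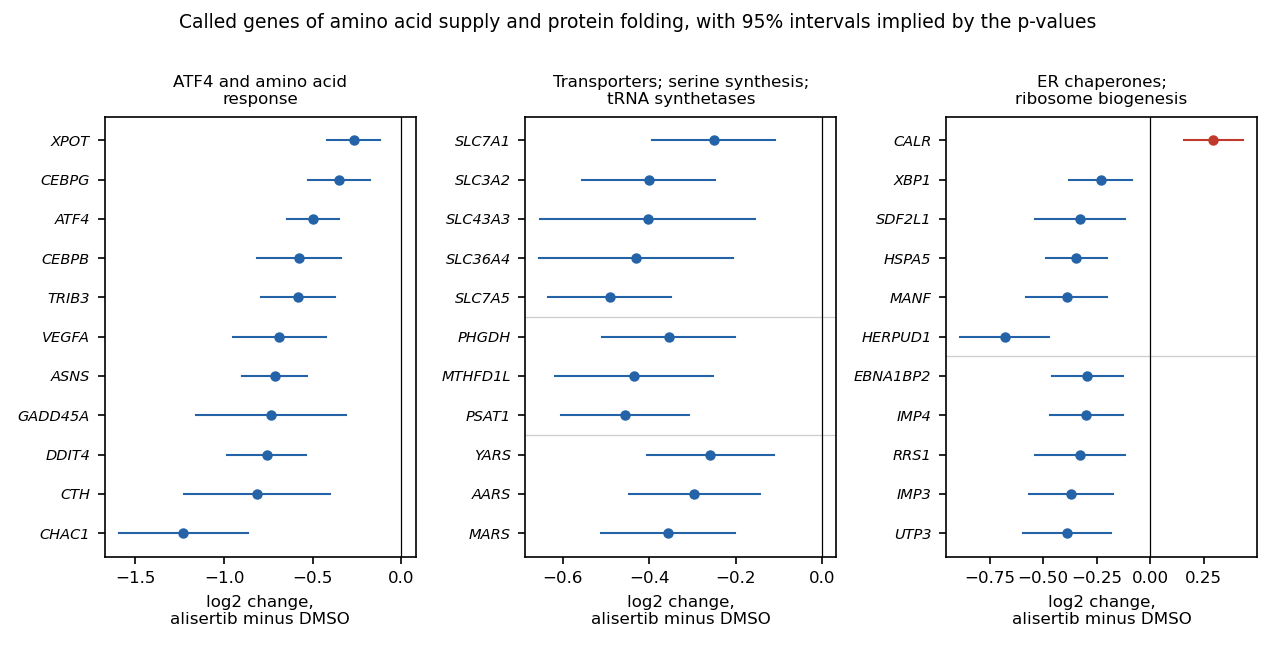
Log2 changes (x axis, 1000 nM alisertib minus DMSO) with implied 95% intervals for every called gene of the lists of ATF4, amino acid transport, serine synthesis, cytosolic tRNA synthetases, ER chaperones and ribosome biogenesis. Every called gene of these lists lies below 0 except CALR at 0.30, and CHAC1 at -1.23 lies lowest.

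Genes of ribosome assembly fell where they were called, and no cytosolic ribosomal protein gene was called. Ribosome biogenesis genes had a median of -0.15, with 34 of 39 measured members below 0. Of the 39, 5 fell (12.8% called, at a median level of 6.94 log2 CPM), against 8.51% called of all genes between 5 and 7 log2 CPM. They were UTP3 (-0.39), IMP3 (-0.37), RRS1 (-0.33), IMP4 (-0.30) and EBNA1BP2 (-0.29), all of which process or assemble ribosomal RNA, in the authors' deposited table. A further 13 members lay below 0 at an unadjusted p under 0.05, and none above 0 did. The 71 measured cytosolic ribosomal protein genes had a median of 0.05 with 58 above 0, and none was called. RPL13A (0.17, p = 0.0164) and RPS27 (0.21, p = 0.0238) had the smallest p in the authors' deposited table. These transcripts have many processed pseudogenes, which can split or share reads. Mitochondrial ribosomal proteins had a median of -0.12 with 52 of 64 measured members below 0. The 4 called were MRPL20 (-0.48), MRPL54 (-0.39), MRPL34 (-0.35) and MRPS34 (-0.27), in the authors' deposited table. Their share of 6.25% is near that of all genes. In the MYC, MAX and MondoA network of 14 measured genes (21.4% called) MYC fell by 0.26 (-0.41 to -0.12), MXD4, a MAX partner that opposes MYC, rose by 0.53 and TXNIP, a target of MondoA, rose as given above, in the authors' deposited table. ARRDC4, the other arrestin driven by MondoA, stood at -0.14 (p = 0.354) in the authors' deposited table.

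Few genes of the proteasome and the respiratory chain were called, and 3 each of the lists of lipid synthesis and of glycolysis. None of 37 measured proteasome genes was called, and 1 had an unadjusted p under 0.05, the assembly factor PSMG3 at -0.25 (p = 0.0177), followed by PSMB5 at -0.18 (p = 0.0506), in the authors' deposited table. Of 66 nuclear-encoded genes of the respiratory chain and ATP synthase 1 fell, NDUFS7 of complex I (-0.42), in the authors' deposited table (1.52% called, median -0.04). In cholesterol and fatty acid synthesis 3 of 29 fell (10.3% called), the sterol sensor INSIG1 (-0.30), the epoxidase SQLE (-0.26) and the desaturase SCD (-0.25), in the authors' deposited table. In glycolysis and hypoxia 3 of 30 fell (10.0% called, median -0.0023): SLC2A5, VEGFA, which the ATF4 list also holds, and the lactate exporter SLC16A3 (-0.38), in the authors' deposited table. GAPDH stood at 0.08 and HK2 at -0.23 (p = 0.00982) in the authors' deposited table, and both missed the threshold.

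Surface and phagocyte genes of monocytes rose more often than they fell. Of 27 measured genes of monocyte and macrophage maturation 7 rose and 3 fell (37.0% called, median 0.16). The costimulatory ligand CD86 rose by 1.30 (95% interval 0.87 to 1.73), ANPEP by 1.02 (0.77 to 1.28), the growth factor receptor CSF1R of macrophages by 0.69 (0.48 to 0.91) and the late endosomal CD68 by 0.68, in the authors' deposited table. The adaptor TYROBP (0.51), the calcium-binding S100A8 (0.51) and the scavenger receptor CD36 (0.48) rose as well, while CHI3L1, the nuclear MNDA (-0.44) and the integrin chain ITGB2 (-0.37) fell, in the authors' deposited table. CD14, the coreceptor for lipopolysaccharide, stood at -0.61 (p = 0.582) and LYZ at 0.24 (p = 0.0774), not called in the authors' deposited table. Of 13 genes in the list of azurophil granule proteins, which are made at the promyelocyte stage, 3 fell and none rose (23.1% called). PRTN3 fell by 0.55 (-0.69 to -0.41), its neighbour AZU1 by 0.28 and RNASE3 by 0.70, in the authors' deposited table. RNASE3 encodes an eosinophil granule protein, so the list does not hold azurophil proteins alone. The granule genes MPO (0.19), ELANE (-0.01) and CTSG (0.04) were not called, and the interval of ELANE's change was -0.17 to 0.16, from the authors' deposited table.

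Transcription factors of the lineage moved in both directions. Among 21 measured myeloid factors (19.0% called) CEBPB (-0.58), MYB, which keeps progenitors dividing (-0.28), and ID1 (-0.98, at 2.92 log2 CPM) fell, and IRF4 rose by 0.74, in the authors' deposited table. SPI1 stood at -0.05, IRF8 at 0.04 and GFI1 at -0.08, not called in the authors' deposited table. In the leukaemic HOXA and MEIS1 programme (17 measured genes, 17.6% called) the histone methyltransferase DOT1L, a cofactor of the KMT2A fusion, fell by 0.39 (-0.55 to -0.23), MYB fell, and the demethylase-like JMJD1C rose by 0.44, in the authors' deposited table. MEIS1 (-0.08), HOXA9 (0.71, p = 0.234) and FLT3 (-0.07, interval -0.21 to 0.07) were not called there in the authors' deposited table.

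Signalling genes were also split. FLT3 with the tandem duplication is known to drive STAT5 and ERK. Of 25 measured output genes (16% called) PIM1, a STAT5 target, fell by 0.58 (-0.73 to -0.42), ETV4, an ERK target, by 0.55 and MYC by 0.26, while DUSP6, the phosphatase that ERK induces against itself, rose by 0.33, in the authors' deposited table. SOCS2, another STAT5 target, stood at -0.14 and SPRY2 at -0.25, not called in the authors' deposited table. Among 14 measured SRC family kinases and regulators (28.6% called) the fall of FGR stood apart in size. Among the other kinases LYN (0.08), FYN (0.32), YES1 (-0.21) and SRC (-0.10) were not called in the authors' deposited table, while the adaptor PAG1 (0.36) and the phosphatase PTPRC (0.37) rose and the phosphatase PTPN6 fell (-0.29). Of 21 measured immediate early factors (14.3% called) FOSL1 (-0.68), JUND (-0.40) and IER2 (-0.35) fell in the authors' deposited table, and FOS stood at -0.42 (p = 0.146) and EGR1 at -0.31 (p = 0.381).

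Of the interferon response list 12 genes were not analysed here, among them IFIT1, IFIT2, IFIT3, MX1, OAS1, OAS2 and OAS3. Interferon response genes lay above 0 in 29 of 35 measured members, with a median of 0.25. Of these 5 rose and none fell (14.3% called): IFI44 (1.97), the antiviral SAMD9L (0.96) and SAMD9 (0.56), the DNA sensor IFI16 (0.63) and the tetherin BST2 (0.31), in the authors' deposited table. XAF1 (0.30, p = 0.00333) was not called, and MX2 lay the other way at -0.31 (p = 0.00694), in the authors' deposited table. In 21 antigen presentation genes B2M, the light chain of class I molecules, rose by 0.34 (0.20 to 0.48) and no other was called. Of 20 NF-kB genes and mediators IL1RN, the interleukin 1 receptor antagonist, rose by 0.56, and NFKBIA stood at 0.19 and TNFAIP3 at -0.14, in the authors' deposited table. These last 2 lists had 4.76% and 5% of members called, under the 5.92% of all genes.

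The cytoskeleton, guidance receptors and lysosome had more higher than lower members. Of 37 measured actin and intermediate filament genes 8 rose and 1 fell (24.3% called, median 0.05). BASP1 rose by 0.93 (0.71 to 1.16), VIM by 0.77 (0.63 to 0.92), GSN by 0.65, the nuclear lamin LMNA by 0.45 and the linker PLEC by 0.35, in the authors' deposited table. The motor MYH9 (0.34), the crosslinker FLNA (0.32) and MYO1G (0.25) rose too, and MYO7A fell by 1.07 (-1.60 to -0.54), in the authors' deposited table. ACTB stood at -0.08 and ACTG1 at 0.14 (p = 0.0408), not called in the authors' deposited table. Of 12 measured tubulins (8.33% called) TUBA4A fell by 0.31 and TUBB stood at -0.09 in that deposited table of the authors. Among 30 measured guidance receptors and semaphorins 5 rose and 1 fell (20% called): the netrin receptor UNC5B (1.35, interval 0.99 to 1.72), the plexins PLXNA3 (1.00) and PLXND1 (0.69), SEMA4B (0.57) and SEMA4A (0.40) rose and SEMA6B (-0.60) fell, in the authors' deposited table. In 30 measured adhesion genes (13.3% called) CD59 (0.96) and the hyaluronan receptor CD44 (0.28) rose and both chains of the integrin LFA-1, ITGB2 (-0.37) and ITGAL (-0.26), fell, in the authors' deposited table.

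Of 46 measured lysosomal genes 8 rose and 1 fell (19.6% called), with 36 above 0 and a median of 0.09. The autophagy receptor SQSTM1 (0.51, interval 0.32 to 0.70), the sialidase NEU1 (0.51), the sulfatase IDS (0.47), the protease CTSS (0.34), the membrane protein LAMP2 (0.30), PSAP (0.29), GRN (0.26) and the proton pump subunit ATP6V1B2 (0.23) rose, while the glucuronidase GUSB fell by 0.32, in the authors' deposited table. SQSTM1, like HMOX1, is also a target of NRF2. TFEB, the factor that drives lysosomal genes, stood at -0.28 (p = 0.0785), not called in the authors' deposited table. Of 8 measured genes of the vault particle and drug efflux (12.5% called) MVP, the major vault protein, rose by 1.04 (0.76 to 1.31), the vault protein TEP1 stood at 0.29 (p = 0.00730) and ABCC1 at 0.02, in the authors' deposited table. Of 12 measured genes of the YAP and tetraploidy response (16.7% called) TEAD3, a partner of YAP, fell by 0.74 and PIDD, which activates caspase 2 after failed cytokinesis, fell by 0.47, in the authors' deposited table. YAP1 itself, TEAD4 and the YAP targets CTGF, CYR61, ANKRD1 and AMOTL2 of that list were not analysed here.

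**Figure D4:**
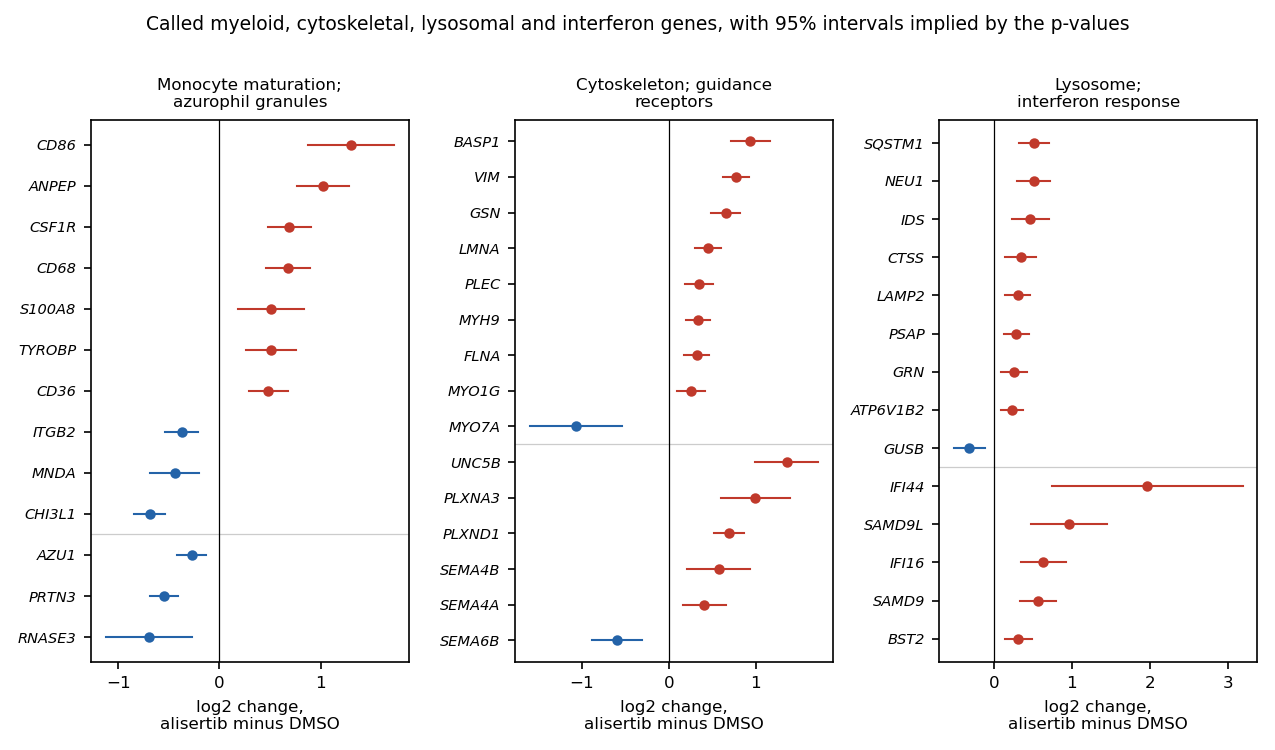
Log2 changes (x axis, 1000 nM alisertib minus DMSO) with implied 95% intervals for every called gene of the lists of monocyte maturation, azurophil granules, cytoskeleton, guidance receptors, lysosome and interferon response. All 3 called genes of the granule list lie below 0, the 5 called interferon genes lie above it, and MYO7A, SEMA6B and GUSB are the only called members below 0 in their lists.

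RNAs that lack a poly(A) tail, which poly(A) selection is meant to remove, were higher where they were called. Only 5 of 21 listed were measured, and 3 of them rose: the ribosomal RN28S1 by 1.44 (1.00 to 1.89), RN7SK, which inhibits P-TEFb, by 1.20 (0.85 to 1.55) and RMRP, the RNA of RNase MRP, by 0.97 (0.50 to 1.44), in the authors' deposited table. SCARNA2 and SNORD3A each stood at 0.03, not called in the authors' deposited table. Of 50 measured replication-dependent histones, whose transcripts mostly end in a stem loop without a tail, 4 rose and 2 fell (12% called). Their median change was 0.27, at a median level of only 0.71 log2 CPM. Between -1 and 1 log2 CPM the median implied standard error over all genes was 1.11, so that median is loosely set. HIST1H2BD rose by 1.57 (at 2.12 log2 CPM), HIST2H4A by 1.13 (at 2.59), HIST1H2BJ by 1.07 and HIST1H2BK by 0.55 (at 5.23), and HIST1H4C fell by 2.01 and HIST1H1C by 0.46 (at 5.81), in the authors' deposited table. HIST1H2BD and HIST1H2BK also have polyadenylated forms, and histone genes are near copies of one another, so reads may be shared. Whether selection for poly(A) or RNA quality differed between the groups was not tested.

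**Figure D5:**
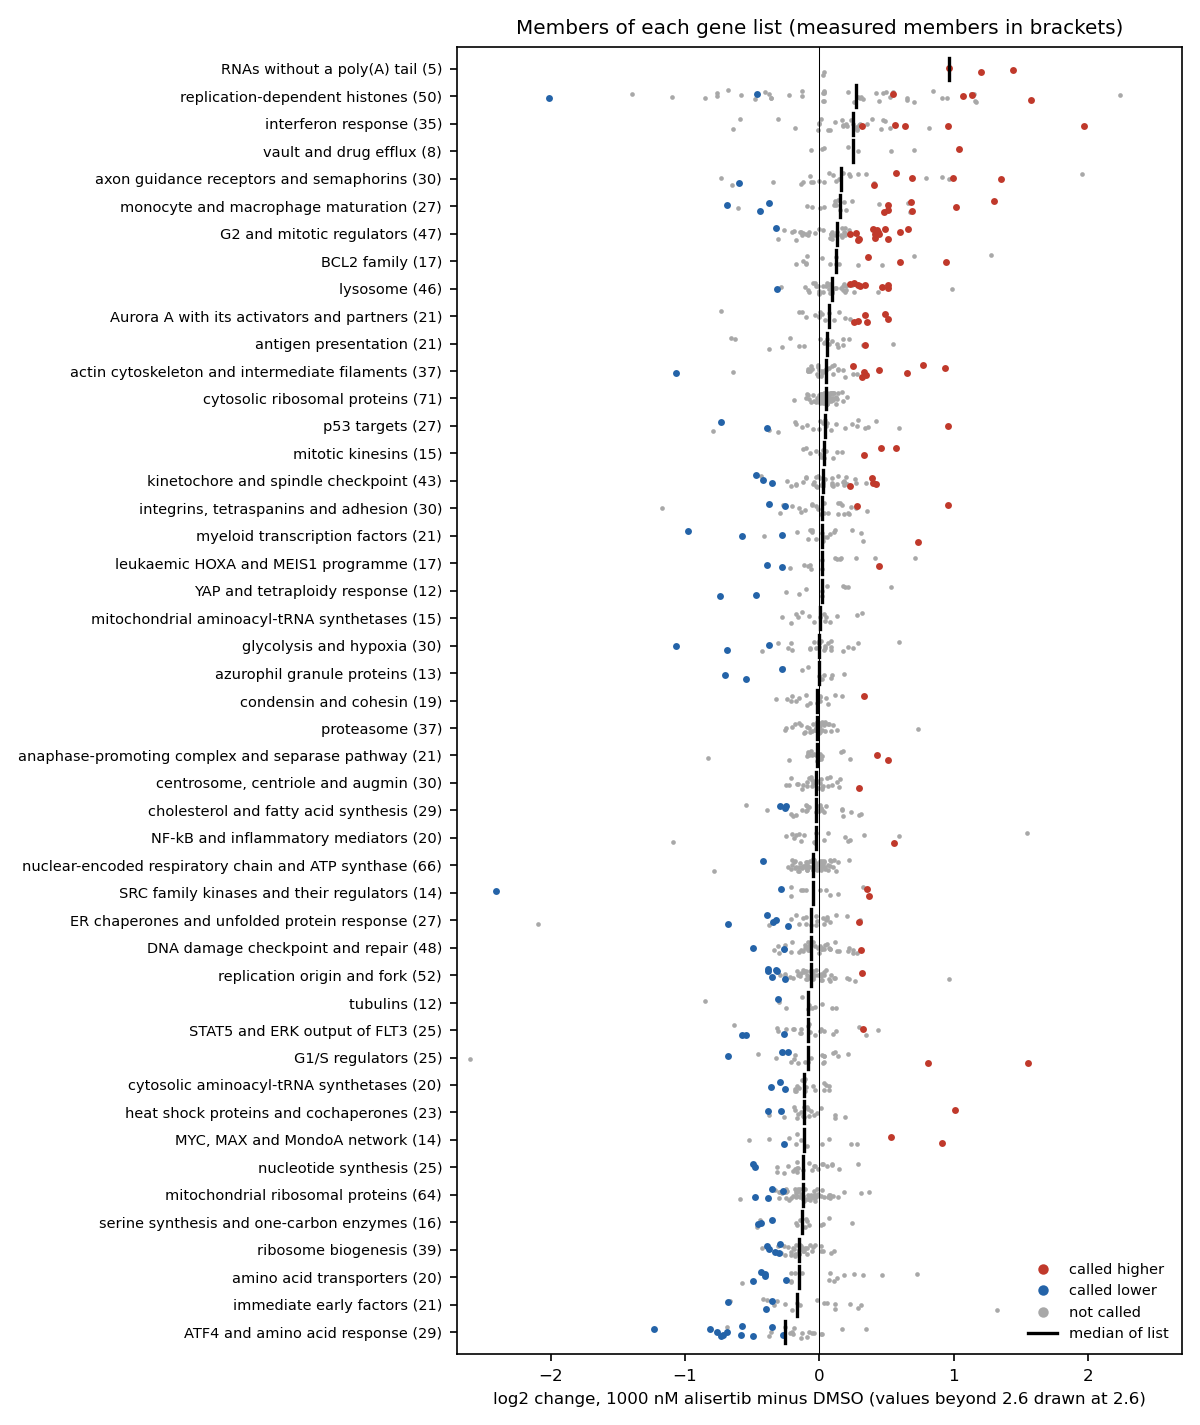
Log2 change (x axis, 1000 nM alisertib minus DMSO) of every measured member of the 47 gene lists, ordered by median, with called members in colour and the median as a bar. The ATF4 list lies lowest at -0.26 and the RNAs without a poly(A) tail highest at 0.97, while most members of most lists are grey, that is not called.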

How the data were processed

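RNA of MV4-11 cells was sequenced after poly(A) selection from directional libraries, per the labels' protocols. Per the submitters' processing notes, TopHat2 2.1.1, Bowtie2 2.3.2, FastQC and the build hg19 were used. How reads were counted, normalized and tested is not given in the sources used here. Deposited by the authors was 1 table, with log2 fold changes between DMSO and each treatment, their raw and adjusted p-values, and 1 column of mean log2 CPM. The column A1000 was read as alisertib for its dose of 1000 nM and multiplied by -1. The table held 13485 rows. 80 rows that repeat 5 gene IDs were reduced to 1 each. The ratio of adjusted to raw p shows that the authors adjusted over 16812 tests, of which 3402 were not analysed here. Columns of values per library that were left unused numbered 0. Depth is therefore unknown.

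No new test against DMSO was computed, although a count model had been planned for values per library. An implied standard error was the absolute log2 change divided by the normal quantile of the authors' p, and its recovery was tested on simulated data. The gene lists and members were chosen with earlier results of these data known. Genes were named by rule: the 12 smallest adjusted p each way, the 8 largest called changes each way from 8 log2 CPM up, the 4 each way under 3 log2 CPM, up to 4 called members of each list (2 by p where none was called), and regulators tied to Aurora A or to the line. The other list members and uncalled genes were named after their values were seen. Some named regulators and list members are not reported here. Promoters are RefSeq's first entry per gene (GRCh38.p14). Gene positions come from GENCODE 29 by Ensembl ID. Python 3.11.15, pandas 2.3.3, numpy 2.4.6 and scipy 1.17.1 were used. Alternatives were a stricter threshold, a minimum change, a level filter, adjustment over the genes analysed here, centring and a shorter promoter window.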

Additional observations from a re-analysis of the deposited data

Results flagged for a closer look

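The authors' deposited table holds comparisons that the labels tie to no group. In the column headed A100, 174 genes had an adjusted p under 0.05, and in the column headed MK 63 genes did. They were flagged because a signal appears in data outside the comparison of alisertib with DMSO. What the headings stand for is not given in the labels, and the columns share the DMSO libraries with the alisertib comparison, so they were not compared with it.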

How the results depend on the processing

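Of the counts, 794 called genes (415 higher, 379 lower) became 440 (239 higher, 201 lower) at an adjusted p under 0.01, and 294 (155 higher, 139 lower) with a change of at least 0.5 required as well. The counts stayed within 1.5 times with adjustment over the genes analysed here (852), a mean of at least 3 log2 CPM (741) and centring on the median (863). At an adjusted p under 0.01, 64 of the 211 genes followed singly were no longer called. Of the list medians 3 of 47 moved with the filter at 3 log2 CPM: that of the immediate early factors was then 0.02, that of the adhesion genes 0.14 and that of the RNAs without a poly(A) tail 1.20. Of the motif shares 9 of 88 moved when only the 250 bases before the start site were searched, with TTTGAA then in 20.6% of kinetochore promoters and 8.93% of all. No paired analysis was possible because the table holds comparisons and no values per library. For the same reason leaving out libraries, other normalizations, DESeq2 and the fit with a replicate block were not run. Depth, which is unknown, limits mainly transcripts under 3 log2 CPM, where the implied errors are large.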

Other observations

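Several called genes have called pseudogene copies, so their reads may be split or shared between near-identical sequences. These genes were chosen after their values were seen. CDC20P1 rose by 0.47 beside CDC20 at 0.51, and GLULP4 by 0.60 beside GLUL at 0.51, in the authors' deposited table. FTH1P2 rose by 0.49 beside the ferritin gene FTH1 at 0.48, in the authors' deposited table. ATF4P4 fell by 0.57 beside ATF4 at -0.50, PCNAP3 by 0.47 beside PCNA at -0.32 and ANP32BP1 by 0.38 beside ANP32B at -0.36, in the authors' deposited table.

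Calls were not spread alike over the chromosomes. On chromosome 19, 16 of 932 genes rose and 49 fell, with a median change of -0.05. On chromosome 11, 38 of 721 rose and 33 fell, 9.85% of its genes. Chromosome 19 is rich in genes of high GC content, and the median GC content of transcripts was 51.0% for higher, 55.3% for lower and 49.6% for all genes with a match. The median transcript lengths were 968, 1106 and 1025 bases. The part of GC content in the calls was not tested.

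Other surface and signalling genes outside the lists were called and are named after their values were seen. The chemokine receptor CXCR4 rose by 0.65 and tissue factor F3 by 0.61, in the authors' deposited table. The receptor gene IL6R (-0.47), the leukotriene receptor LTB4R (-0.63) and the growth factor PDGFA (-1.05) fell, in the authors' deposited table. The haem enzyme CAT, which breaks down hydrogen peroxide, rose by 0.38 and the spectrin gene SPTAN1 by 0.68, in the authors' deposited table. Both constant genes of the T cell receptor gamma locus fell, TRGC1 by 0.36 and TRGC2 by 0.34, at 7.16 and 7.12 log2 CPM, in the authors' deposited table. TRGC1 and TRGC2 are near copies of each other, so reads may be shared.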
